A study of Mus musculus with 8 samples.

Results

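The Slc25a genes code for the mitochondrial carrier family, the membrane proteins that move metabolites, nucleotides, cofactors and ions across the inner mitochondrial membrane. They were taken from the deposited table by name, as the genes whose single platform symbol is Slc25a followed by a number, with each gene read from its brightest probe set over the 8 arrays. The rule found 44 of the 18193 genes measured. It uses gene names and mean signal, and not the difference between groups, but it was chosen with earlier results of these data known. Slc25a17 is set apart among them because its product lies in the peroxisomal membrane. RNA came from gonadal fat of mice aged 10 weeks on a Swiss background and was hybridised to Affymetrix mouse expression arrays. The Pex5 knockout group (genotype aP2-Pex5 -/-) has 4 arrays, numbered 6, 8, 9 and 10, and the wild type control group has 4 arrays, numbered 1 to 4. Pex5 is the receptor that brings enzymes into the peroxisome, and the submitters describe the knockout fat as lacking functional peroxisomes. No other allele, drug or diet is named for either group.

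The aP2 promoter, that of Fabp4, is active mainly in adipocytes and also in some macrophages, so other cells of the tissue may keep the gene. Whether each array stands for its own animal is not stated in the labels, and the p-values therefore reflect variation among these arrays, which may be technical. Pex5 was measured by 2 probe sets. The brighter one read 9.50, 9.27, 9.38 and 9.30 in the knockout arrays, against 9.52, 9.58, 9.34 and 9.06 in the control arrays. The other read 9.30, 9.15, 8.75 and 9.06 in knockouts, against 9.005, 9.39, 9.16 and 8.55 in controls. The groups overlapped in both, and their means differed by -0.01 and 0.04. The labels do not place the deleted part of the gene relative to these probes, so Pex5 signal does not check the genotype here.

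Most members of the family share a fold of transmembrane helices in repeated modules and exchange one small molecule for another. In fat, the citrate and dicarboxylate carriers link mitochondria to fatty acid synthesis: citrate leaves the matrix and supplies carbon for fatty acids in the cytosol. Other members export ATP, import phosphate, pass reducing equivalents through the malate-aspartate shuttle, take up acylcarnitines for oxidation, or carry iron and glutathione. Slc25a17, also called PMP34, carries coenzyme A and related cofactors in reconstituted membranes, as shown for the human protein. Peroxisomal membrane proteins of its kind are inserted through Pex19 and Pex3 rather than imported by Pex5.

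All values are deposited log2 values made with RMA, a method that normalises arrays and combines probes into one value per probe set, so a difference of 1 is a doubling. Array medians lay between 6.44 and 6.52. The arrays were cut into 2 sets of 4 at the widest gap in their lower quartiles. That gap is narrow, with 4.77 to 4.79 in the first set and 4.83 to 4.85 in the second. Each set has 2 of each group: knockouts 6 and 8 with controls 1 and 2, and knockouts 9 and 10 with controls 3 and 4. The sets come from these values and not from the labels, which name no batch. They match the first 4 and the last 4 samples in the order listed. The signal of the 3' minus the 5' control probe sets for pyruvate carboxylase, a measure of RNA quality in which a wide gap marks shortened transcripts, was 2.10, 1.77, 4.65 and 1.60 in the knockouts, against 3.97, 1.59, 2.08 and 4.83 in the controls. Knockout 9 and controls 1 and 4 therefore stood apart, and results are also given without them. Adipocyte markers were bright throughout, with 8 of 10 measured and a mean of 12.99 to 13.18 in knockouts, against 12.77 to 13.18 in controls. The brown adipocyte marker Ucp1 was near the low end, at 5.20 ± 0.10 in knockouts and 5.19 ± 0.18 in controls (SD, n = 4 each). Not all brown adipocyte markers were this faint or this level: Cox8b averaged 8.83 in knockouts and 8.58 in controls. Of the 7 listed, 3 read higher in knockouts and 4 lower, from -0.62 (Elovl3) to 0.58 (Prdm16), and none passed the test used below. In whole tissue, fewer cells of a type and less RNA per cell cannot be told apart.

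Many of these carriers gave strong signals in fat. Of the 44, 33 lay above the median signal of all genes, 17 in the top quartile and 9 in the top decile, while 4 lay in the bottom quartile. The median member read 8.80, against 7.58 over all genes. Ordered by mean signal over the 8 arrays, the first 8 were Slc25a39 (13.13), Slc25a5 (12.68), Slc25a3 (12.61), Slc25a4 (12.54), Slc25a1 (11.89), Slc25a10 (11.68), Slc25a51 (11.06) and Slc25a46 (10.87). The first place of Slc25a39 rests on its brightest probe set, which can bind related transcripts. Its next brightest averaged only 11.18 in knockouts and 11.30 in controls. The ranges over arrays of Slc25a5, Slc25a3 and Slc25a4 overlapped one another, as did those of Slc25a1 with Slc25a10 and of Slc25a51 with Slc25a46. Within arrays, Slc25a1 nevertheless read above Slc25a10 in 8 of 8, by 0.11 to 0.50, while the order of Slc25a5, Slc25a3 and Slc25a4, and of Slc25a51 and Slc25a46, was not the same in every array. The faintest were Slc25a41 (4.73), Slc25a54 (3.94), Slc25a2 (3.87) and Slc25a31 (3.66). Probe sets bind their targets with different strength, so this is an order of signals and not of transcript numbers. Slc25a17 stood at 9.84, above 82.9% of genes.

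**Figure D1:**
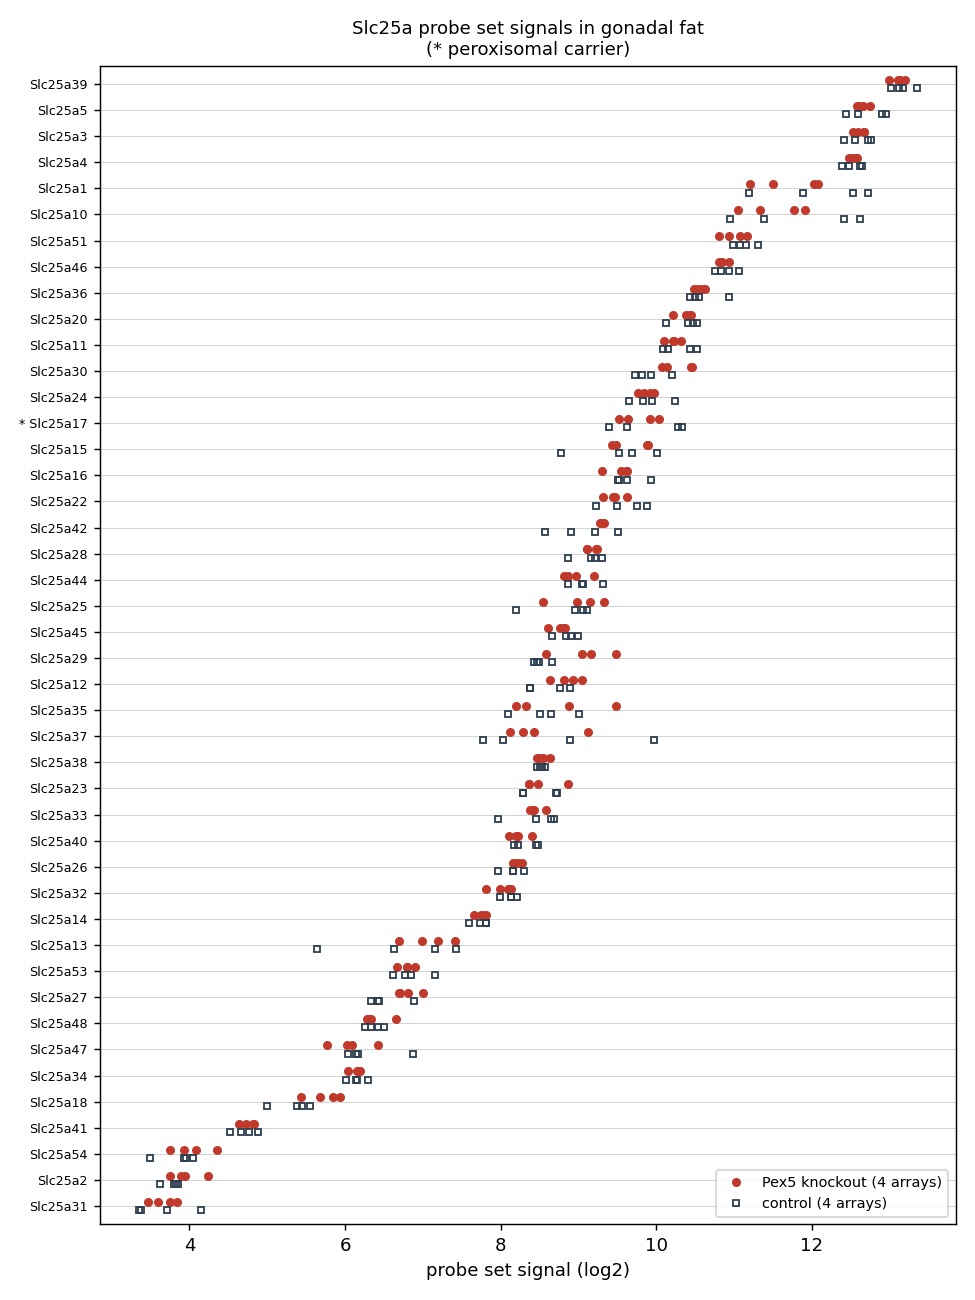
Probe set signal (log2, x axis) of each Slc25a gene, ordered by mean signal, with 4 filled points for Pex5 knockout arrays and 4 open squares for control arrays. The signals run from Slc25a39 at 13.13 down to Slc25a31 at 3.66 (means over 8 arrays). The ranges of the groups overlap in every gene, though in Slc25a29 only knockout 8 falls below a control.

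No carrier passed the test between knockout and control fat. In the limma fit over all genes, 0 of the 44 had a Benjamini-Hochberg adjusted p below 0.05, where the background is 0 percent of 18193 genes, and the smallest adjusted p among members was 0.999. In direction, 23 read higher in knockouts and 21 lower, so that 47.7% were lower, against 53.3% of all genes. With array medians subtracted, which moved every difference by -0.03, 15 read higher and 29 lower (65.9%, against 63.3% of all genes). The median difference was 0.004 for the members and -0.01 for all genes, and single members ran from -0.38 (Slc25a1) to 0.55 (Slc25a29). Before adjustment, 3 members had p below 0.05 and all 3 read higher in knockouts, beside 2.56 percent of all genes in either direction and 1.18 percent in that direction. Slc25a29, Slc25a30 and Slc25a18 were those 3. Leaving out each of the 8 arrays in turn put the unadjusted limma p at 0.05 or above 0 times for Slc25a29, 4 times for Slc25a30 and 5 times for Slc25a18. In 0 of the members were the groups completely separated, against 1.7 percent of all genes (0.682 percent higher and 1.02 percent lower in knockouts).

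The intervals state what these arrays could show. For 28 of the 44 members (63.6%, against 78.1% of all genes) the 95% interval of the difference lay within 0.5 of zero, and for 40 it lay within 1, a doubling or halving. Intervals were widest in Slc25a37, Slc25a10, Slc25a13 and Slc25a1. The control arrays varied more: the SD was larger in controls than in knockouts for 36 of the members (81.8%), against 66.7% of all genes. The highest of the 8 arrays was a control for 32 members and a knockout for 12, and the lowest was a control for 35 and a knockout for 9. Control 1 alone held the highest value of 15 members, and controls 2 and 3 the lowest value of 11 each.

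**Figure D2:**
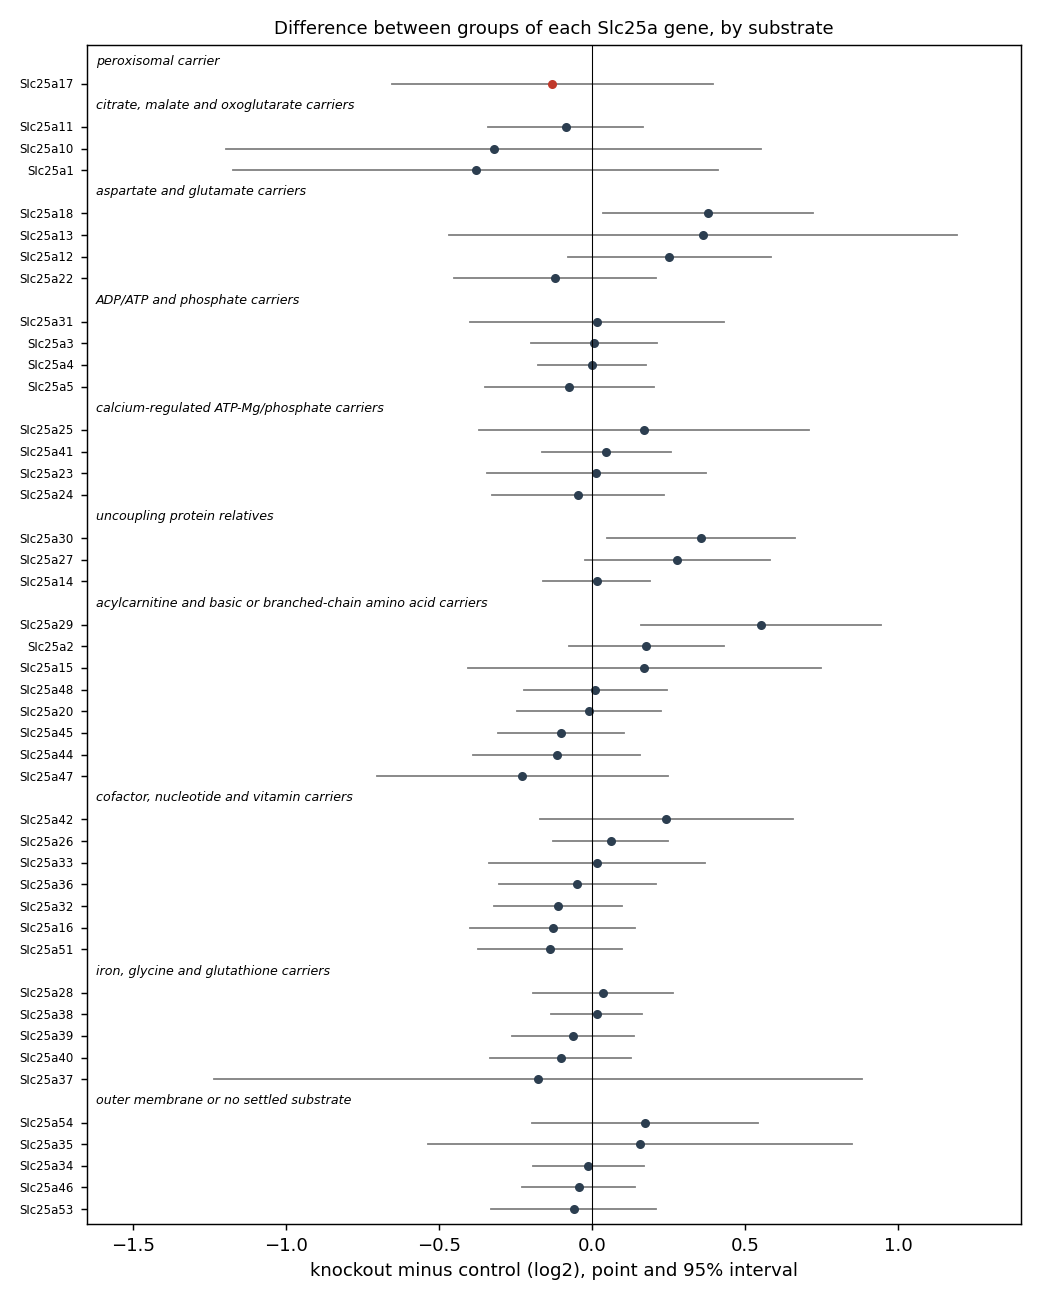
Difference of each Slc25a gene, knockout minus control (log2, x axis), as a point with its 95% interval from limma, grouped by what the carrier moves. Of the 44 intervals, 3 exclude zero without adjustment (Slc25a29, Slc25a30 and Slc25a18), and the widest belongs to Slc25a37.

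Slc25a17, the peroxisomal carrier, did not differ between the groups beyond the spread of the arrays. It read 10.03, 9.92, 9.64 and 9.52 in knockouts 6, 8, 9 and 10, against 10.27, 10.33, 9.63 and 9.39 in controls 1, 2, 3 and 4 (the order used for all values below). Controls 1 and 2 were highest and control 4 lowest, and the knockout values lay inside the control range. The means were 9.78 ± 0.24 in knockouts and 9.91 ± 0.47 in controls (SD, n = 4 each). The difference was -0.13 (95% interval -0.65 to 0.39, as in later parentheses), and its limma p after adjustment was 0.999. An exact two-sided permutation test over the 70 arrangements of the arrays gave p = 0.6, where the smallest possible is 0.0286. Within the array sets the difference was -0.33 among knockouts 6 and 8 with controls 1 and 2, and 0.07 among knockouts 9 and 10 with controls 3 and 4. Without knockout 9 and controls 1 and 4 it was -0.15. A second probe set for Slc25a17, near the low end of the scale, averaged 4.63 in knockouts and 4.60 in controls.

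The genes listed around Slc25a17 for peroxisome biology gave small differences as well, and 0 of them passed the test, as for all genes. The 3 insertion factors of peroxisomal membrane proteins read lower in knockouts by the means, with a median of -0.18. Pex3, which anchors the insertion machinery in the membrane, averaged 10.25 ± 0.09 in knockouts and 10.43 ± 0.19 in controls (SD, n = 4 each). Pex16, which helps recruit Pex3, read 10.60, 10.30, 9.97 and 9.85 in knockouts, against 10.67, 10.96, 10.32 and 9.48 in controls. Control 2 was highest and control 4 lowest, as for Slc25a17. A list of 6 other peroxisomal membrane transporters and channels and their relatives gave 5 lower and 1 higher, with a median of -0.08. Not all of the 6 are peroxisomal: the list includes Abcd4 and Mpv17, the latter being the 1 that read higher. Abcd4 (-0.14) and Abcd2 (-0.09) had the smallest p among them, and Abcd2 is known as an importer of very long acyl-CoA into peroxisomes. Among 5 peroxisomal hydrolases, all but Nudt12 acting on coenzyme A compounds, 4 read lower and 1 higher. Nudt12, an NADH hydrolase, read 8.71, 8.76, 8.76 and 8.72 in knockouts, against 8.89, 8.82, 8.99 and 8.89 in controls. Its groups did not overlap, with a difference of -0.16, yet its adjusted limma p was 0.999, and 1.02 percent of all genes were separated in this direction. Nudt19, a coenzyme A hydrolase, differed by 0.20.

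The promoters of 4 carriers, chosen by hand, are printed, and that of Slc25a29, which had the largest difference, is not. The 4 are the peroxisomal carrier Slc25a17, the citrate and dicarboxylate carriers Slc25a1 and Slc25a10, and Slc25a30, which read higher in 4 of its 5 probe sets. The printed windows are the 250 bases before the RefSeq gene start on GRCm38.p6, written 5' to 3' along the gene, with capitals for the letters of any motif searched. They lie at chr15:81360766-81361015 (minus strand), chr16:17928220-17928469 (minus strand), chr11:120491587-120491836 (plus strand) and chr14:75787038-75787287 (minus strand).
Slc25a17: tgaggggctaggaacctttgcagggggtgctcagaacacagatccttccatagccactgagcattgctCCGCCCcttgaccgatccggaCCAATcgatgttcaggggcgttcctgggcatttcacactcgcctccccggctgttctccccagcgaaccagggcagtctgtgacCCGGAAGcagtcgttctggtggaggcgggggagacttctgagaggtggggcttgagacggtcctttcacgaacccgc
Slc25a1: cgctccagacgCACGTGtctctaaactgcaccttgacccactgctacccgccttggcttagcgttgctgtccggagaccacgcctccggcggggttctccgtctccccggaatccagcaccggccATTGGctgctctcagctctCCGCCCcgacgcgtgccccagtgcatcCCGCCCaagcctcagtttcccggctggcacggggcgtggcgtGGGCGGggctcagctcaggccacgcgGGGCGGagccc
Slc25a10: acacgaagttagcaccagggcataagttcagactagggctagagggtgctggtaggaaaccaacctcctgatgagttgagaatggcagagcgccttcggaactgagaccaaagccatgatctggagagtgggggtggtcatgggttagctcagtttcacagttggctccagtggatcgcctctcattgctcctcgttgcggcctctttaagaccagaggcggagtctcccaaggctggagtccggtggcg
Slc25a30: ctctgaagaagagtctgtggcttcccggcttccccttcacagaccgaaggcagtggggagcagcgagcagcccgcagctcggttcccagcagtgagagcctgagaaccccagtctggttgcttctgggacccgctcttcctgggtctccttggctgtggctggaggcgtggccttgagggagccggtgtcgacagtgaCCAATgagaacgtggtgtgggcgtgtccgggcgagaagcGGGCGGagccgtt

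In the Slc25a17 promoter the search found a GC box on the opposite strand 182 bases before the start, a CCAAT box at 161 and an ETS motif at 77. The Slc25a1 promoter held an E-box (CACGTG) at 239, a CCAAT box on the opposite strand at 125, and 4 GC boxes on either strand at 106, 79, 37 and 11. In the Slc25a30 promoter a CCAAT box stood at 52 and a GC box at 13, and none of the motifs was found in the Slc25a10 window. GC content was 61.2% for Slc25a17, 70% for Slc25a1, 56.0% for Slc25a10 and 64.4% for Slc25a30. A match describes letters in the window and not a bound site.

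Promoter entries matched 34 of the 44 members by symbol, with 43 windows, and were set beside all 32851 windows of the RefSeq table, each searched on both strands. The GC box (GGGCGG), the site of Sp factors, was found in 74.4% of member windows, against 32.7% of all windows. The CCAAT box (CCAAT) was found in 46.5%, against 33.8%, the E-box (CACGTG) in 18.6%, against 6.02%, and the ETS motif (CCGGAAG) in 14.0%, against 6.91%. The NRF1 motif was found in 4.65%, against 3.74%, and the sterol element (TCACNCCAC) in 2.33%, against 1.05%. The ERR motif (TCAAGGTCA) was found in 0 member windows, against 0.387% of all windows. Member windows had a median GC content of 58.0%, against 52.4% for all windows, and the motif shares were not adjusted for this. Windows of 1 gene overlap, and motifs can overlap, so the shares are a description.

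The carriers of citrate, malate and oxoglutarate read lower in knockouts by their means, 3 of 3 with a median difference of -0.32, but none passed the test. Slc25a1, which exports citrate for fatty acid synthesis, read 12.07, 12.02, 11.51 and 11.21 in knockouts, against 12.53, 12.72, 11.89 and 11.19 in controls. Controls 1 and 2 were the highest arrays and control 4 the lowest, so the groups overlapped across the whole knockout range. The means were 11.70 ± 0.42 in knockouts and 12.08 ± 0.69 in controls (SD, n = 4 each), which gave -0.38 (-1.17 to 0.41). Leaving out single arrays moved it between -0.68 (without control 4) and -0.17 (without control 2). Slc25a10, which exchanges malate and succinate for phosphate, read 11.91, 11.77, 11.33 and 11.06 in knockouts, against 12.41, 12.61, 11.39 and 10.94 in controls. Again controls 1 and 2 were high and control 4 low, and the difference was -0.32 (-1.19 to 0.55), moving between -0.62 and -0.06 without the same arrays. A second probe set of Slc25a10 differed by -0.17. Slc25a11, which exchanges oxoglutarate for malate, averaged 10.21 ± 0.09 in knockouts and 10.30 ± 0.21 in controls (SD, n = 4 each).

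Controls 1 and 2 were also the highest arrays of 3 enzymes of fatty acid synthesis. Fasn, the fatty acid synthase, read 13.62, 13.51, 13.22 and 12.45 in knockouts, against 14.11, 14.08, 13.48 and 12.79 in controls. Acly, which splits the exported citrate, read 12.48, 12.72, 12.45 and 11.63 in knockouts, against 13.33, 13.31, 13.02 and 11.89 in controls. Me1, the malic enzyme that makes NADPH, read 12.22, 12.13, 11.86 and 11.42 in knockouts, against 13.30, 13.12, 12.26 and 11.56 in controls. The lowest array was knockout 10 in these enzymes and control 4 in Slc25a1, Slc25a10 and Slc25a17. Control 3 stood above every knockout in Acly and, narrowly, in Me1, but not in Fasn or these carriers. The set holding controls 1 and 2 averaged above the other set by signal: 12.34 against 11.45 for Slc25a1, 12.18 against 11.18 for Slc25a10 and 10.14 against 9.54 for Slc25a17. Within the sets, Slc25a1 differed between groups by -0.58 and -0.18, and Slc25a10 by -0.67 and 0.03. Of the 10 citrate and malate enzymes measured, 8 read lower and 2 higher, with a median of -0.27, and 0 passed the test. Acaca, which makes malonyl-CoA, differed by -0.86 (-1.79 to 0.07), and Pcx, the pyruvate carboxylase, by -0.38.

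**Figure D3:**
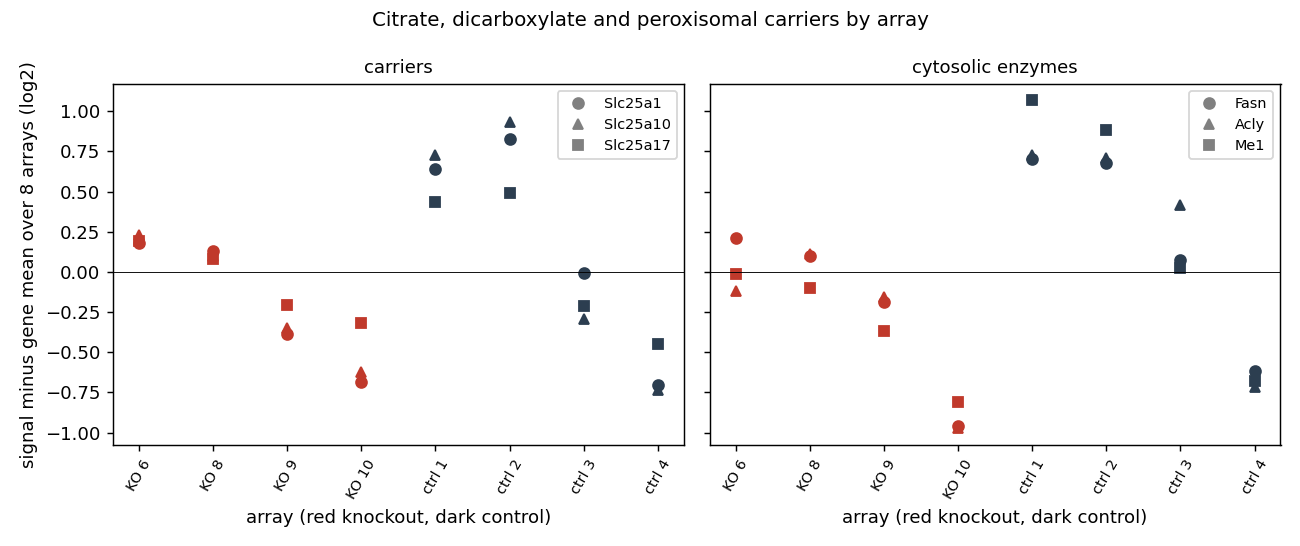
Signal minus the gene's mean over the 8 arrays (log2, y axis) for each array (x axis, knockouts left and controls right), for the carriers in one panel and enzymes of fatty acid synthesis in the other. In each gene controls 1 and 2 sit highest, while control 4 sits lowest in the carriers and knockout 10 in the enzymes.

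The aspartate and glutamate carriers read higher in 3 of 4 cases, with a median of 0.31 and none past the test. Slc25a12, the aspartate-glutamate carrier of the malate-aspartate shuttle, read 8.93, 9.04, 8.63 and 8.81 in knockouts, against 8.76, 8.37, 8.38 and 8.89 in controls. Controls 2 and 3 were lowest, controls 1 and 4 lay among the knockouts, and the difference was 0.25 (-0.08 to 0.58), with all 3 probe sets higher. Slc25a13, the second carrier of this kind and the main one in liver, read 7.19, 7.41, 6.69 and 6.99 in knockouts, against 7.42, 6.62, 5.63 and 7.15 in controls. Control 3 was lowest and control 1 level with knockout 8, giving 0.36 (-0.47 to 1.19), or 0.005 without control 3. Got2, the mitochondrial aspartate aminotransferase, had the same low arrays: 10.45, 10.62, 10.41 and 10.42 in knockouts, against 10.87, 9.93, 9.67 and 10.70 in controls.

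Slc25a18 and Slc25a22 both carry glutamate with protons. Slc25a18 read 5.84, 5.94, 5.43 and 5.67 in knockouts, against 5.55, 4.99, 5.38 and 5.44 in controls. Knockouts 6, 8 and 10 exceeded every control, and knockout 9 fell within the control range. The difference was 0.38 (0.04 to 0.72), with an unadjusted limma p of 0.0338 and an adjusted p of 0.999. Slc25a22 read 9.45, 9.47, 9.63 and 9.31 in knockouts, against 9.75, 9.88, 9.49 and 9.22 in controls, a difference of -0.12 (-0.45 to 0.21). The knockouts lay inside the control range. Within an array, the signal of Slc25a22 minus that of Slc25a18 was 3.74 ± 0.31 in knockouts and 4.24 ± 0.46 in controls (SD, n = 4 each), and the ranges overlapped. That gap has no absolute meaning across probe sets, and only its change of -0.50 between groups can be read.

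The ADP/ATP and phosphate carriers serve ATP synthesis, and 3 of the 4 were among the brightest members. Of the 4, 3 read higher and 1 lower, with a median difference of 0.004. Slc25a4, the ADP/ATP carrier of heart and muscle, read 12.56, 12.53, 12.58 and 12.47 in knockouts, against 12.65, 12.62, 12.48 and 12.39 in controls. Slc25a5, the more widely expressed ADP/ATP carrier, read 12.65, 12.60, 12.75 and 12.58 in knockouts, against 12.95, 12.90, 12.44 and 12.59 in controls. Slc25a3, the phosphate carrier, read 12.66, 12.67, 12.59 and 12.53 in knockouts, against 12.76, 12.71, 12.42 and 12.55 in controls. In these genes controls 1 and 2 were highest, the lowest array was always control 3 or 4, and the knockouts lay inside the control range. The differences were 0.001 for Slc25a4 (-0.17 to 0.18), -0.07 for Slc25a5 (-0.35 to 0.20) and 0.01 for Slc25a3 (-0.20 to 0.21), and those of Slc25a4 and Slc25a3 changed sign when array medians were subtracted. All 8 probe sets of Slc25a5 read lower by the means. Slc25a5 has many processed copies in mammalian genomes, and its brightest probe set is one that can bind other transcripts, so its value is uncertain. Within arrays, Slc25a4 minus Slc25a5 was -0.11 ± 0.04 in knockouts and -0.19 ± 0.16 in controls (SD, n = 4 each).

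The calcium-regulated carriers that exchange ATP-Mg for phosphate, and so set the adenine nucleotide pool of the matrix, gave 3 higher and 1 lower, with a median of 0.03. Slc25a24 read 9.84, 9.76, 9.97 and 9.91 in knockouts, against 9.65, 9.83, 10.24 and 9.95 in controls, and the control range enclosed the knockouts (-0.04). Slc25a25 read 9.32, 8.54, 8.98 and 9.15 in knockouts, against 8.95, 9.06, 9.11 and 8.20 in controls. Control 4 was lowest and knockout 6 highest, with a difference of 0.17 (-0.37 to 0.71). Within arrays, Slc25a24 minus Slc25a25 was 0.87 ± 0.30 in knockouts and 1.09 ± 0.48 in controls (SD, n = 4 each). Slc25a23 averaged 8.52 in knockouts and 8.50 in controls. Slc25a41 was faint, at 4.75 in knockouts and 4.71 in controls.

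The relatives of the uncoupling proteins read higher in 3 of 3 cases, with a median of 0.28 and none past the test. Slc25a30 belongs to this branch and was first described in kidney. It read 10.44, 10.46, 10.13 and 10.08 in knockouts, against 9.94, 9.72, 9.82 and 10.20 in controls. Knockouts 6 and 8 exceeded every control, while knockouts 9 and 10 lay above controls 1, 2 and 3 but below control 4. The means were 10.28 ± 0.20 in knockouts and 9.92 ± 0.21 in controls (SD, n = 4 each), a difference of 0.36 (0.05 to 0.66) with an unadjusted limma p of 0.0279 and an adjusted p of 0.999. Of its 5 probe sets, 4 differed by 0.31 to 0.36, and the faint remaining one by -0.02. Within the array sets the difference was 0.62 and 0.09. Slc25a27, a relative known from brain and also called Ucp4, read 6.69, 7.003, 6.71 and 6.81 in knockouts, against 6.34, 6.43, 6.89 and 6.44 in controls. Control 3 lay among the knockouts and the other controls lay below them all, with a difference of 0.28 (-0.02 to 0.58), and 2 of its 4 probe sets read lower. Slc25a14, also known from brain, averaged 7.75 in knockouts and 7.74 in controls.

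The carriers of acylcarnitine and of basic or branched-chain amino acids split 4 to 4, with a median of 0.0008. Slc25a29 carries basic amino acids, as shown for the human protein. It read 9.05, 8.58, 9.48 and 9.16 in knockouts, against 8.66, 8.43, 8.47 and 8.50 in controls. Knockouts 6, 9 and 10 exceeded every control, and knockout 8 lay below control 1. The means were 9.07 ± 0.37 in knockouts and 8.51 ± 0.10 in controls (SD, n = 4 each). The difference of 0.55 (0.16 to 0.95) was the largest among the 44 members in either direction, with an unadjusted limma p of 0.0115 and an adjusted p of 0.999. All 5 probe sets read higher, by 0.17 to 0.55, and the differences within the array sets were 0.27 and 0.84. With the RNA quality measure as a covariate it was 0.62. Knockout 9, the highest array of this gene, is also the knockout with the widest gap in that measure. The difference was 0.42 without knockout 9 and 0.48 without it and controls 1 and 4, and 0.36 with the probe sets averaged.

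**Figure D4:**
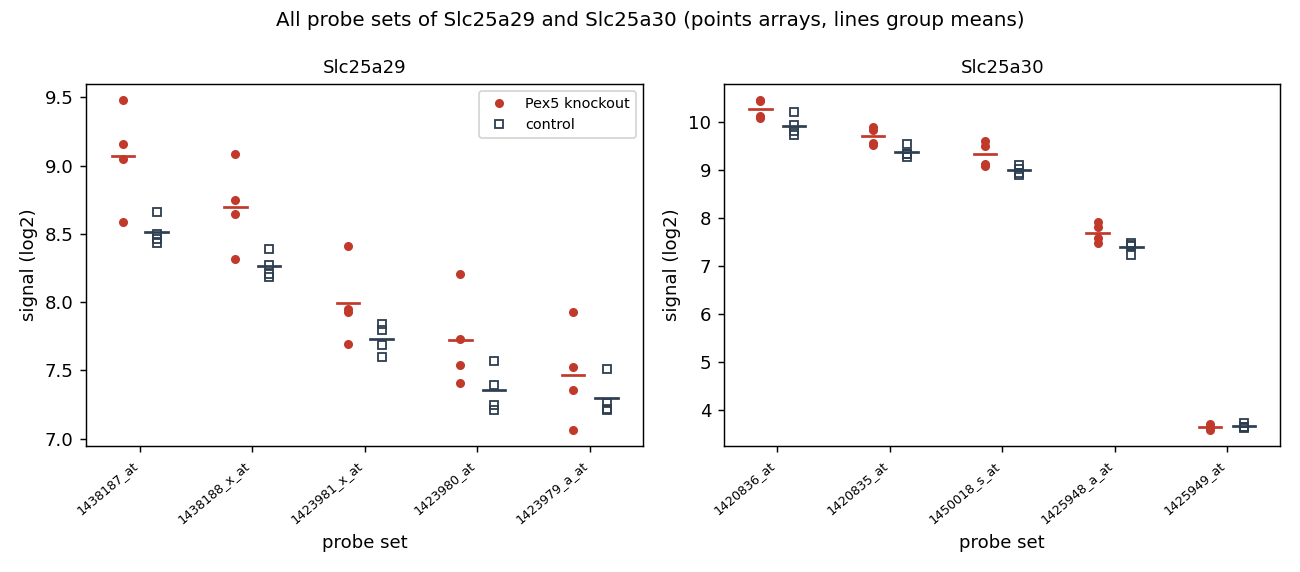
Signal (log2, y axis) in each array for every probe set (x axis) of Slc25a29 and Slc25a30, with filled points for knockouts, open squares for controls and short lines for group means. The knockout mean is higher in all 5 probe sets of Slc25a29 and in 4 of 5 of Slc25a30, and single arrays of the groups overlap in the probe set used for each gene.

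Slc25a20, the carnitine-acylcarnitine carrier of fatty acid oxidation, averaged 10.37 ± 0.10 in knockouts and 10.38 ± 0.18 in controls (SD, n = 4 each), a difference of -0.01 (-0.25 to 0.23). The 4 carnitine shuttle enzymes measured all read lower, with a median of -0.20. Crat, the carnitine acetyltransferase of mitochondria and peroxisomes, read 10.21, 10.20, 10.16 and 10.11 in knockouts, against 10.61, 10.47, 10.43 and 10.14 in controls. Only control 4 lay among the knockouts, and the difference was -0.24 with an adjusted limma p of 0.999. Cpt2, which remakes acyl-CoA in the matrix, differed by -0.29.

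Slc25a15, the ornithine carrier of the urea cycle, averaged 9.67 ± 0.25 in knockouts and 9.50 ± 0.52 in controls (SD, n = 4 each). Slc25a2, the second ornithine carrier, was near the low end, at 3.96 in knockouts and 3.78 in controls. Slc25a44, which takes up branched-chain amino acids in brown fat, differed by -0.11 (-0.39 to 0.16). Slc25a45 and Slc25a48 differed by -0.10 and 0.01.

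Slc25a47, known from liver, averaged 6.08 ± 0.27 in knockouts and 6.30 ± 0.39 in controls (SD, n = 4 each). It read 5.76, 6.43, 6.09 and 6.02 in knockouts, against 6.88, 6.14, 6.04 and 6.16 in controls, so that control 1 stood well above its group. Control 1 also had the most liver marker signal: the mean over 7 of 8 listed markers was 8.91, 7.71, 6.18 and 7.03 in knockouts, against 11.01, 8.28, 7.53 and 6.30 in controls. Apoa2, an apolipoprotein made by liver, read 9.22, 7.64, 6.64 and 7.06 in knockouts, against 11.31, 8.57, 8.23 and 6.84 in controls. Knockout 6, with the next highest liver mean, had the lowest Slc25a47. The part of liver RNA in the carrier's values was not tested.

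The carriers of cofactors, nucleotides and vitamins gave 3 higher and 4 lower, with a median of -0.05. Slc25a51, the NAD carrier identified in human cells, read 10.81, 11.07, 11.16 and 10.93 in knockouts, against 11.30, 11.15, 11.07 and 10.99 in controls, a difference of -0.14 (-0.37 to 0.10). Control 1 was highest and knockouts 6 and 10 lowest. Slc25a33 and Slc25a36, which carry pyrimidine nucleotides, differed by 0.02 (-0.34 to 0.37) and -0.05 (-0.30 to 0.21). Slc25a33 read 8.58, 8.43, 8.38 and 8.41 in knockouts, against 8.68, 8.65, 8.45 and 7.96 in controls. Slc25a36 read 10.49, 10.58, 10.54 and 10.62 in knockouts, against 10.55, 10.44, 10.50 and 10.93 in controls. Control 4 was the lowest array of Slc25a33 and the highest of Slc25a36. Within arrays, Slc25a33 minus Slc25a36 was -2.11 ± 0.14 in knockouts and -2.17 ± 0.54 in controls (SD, n = 4 each).

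Slc25a42, the coenzyme A carrier of mitochondria, read 9.29, 9.29, 9.33 and 9.27 in knockouts, against 9.51, 8.91, 8.57 and 9.22 in controls. Controls 2 and 3 were low, as for Slc25a12 and Got2, and the difference was 0.24 (-0.17 to 0.66). Slc25a16, a relative linked to coenzyme A, differed by -0.13 (-0.40 to 0.14). Slc25a26, the S-adenosylmethionine carrier, differed by 0.06 (-0.13 to 0.25), and Slc25a32, the folate and FAD carrier, by -0.11 (-0.32 to 0.10).

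Among the carriers of iron, glycine and glutathione, 2 read higher and 3 lower, with a median of -0.06. Slc25a37, mitoferrin 1, brings iron into the mitochondria of red cell precursors and had the widest range of all members, 2.19. It read 8.12, 8.29, 9.12 and 8.43 in knockouts, against 8.03, 7.78, 8.89 and 9.97 in controls. Control 4 was highest, followed by knockout 9 and control 3, and controls 1 and 2 were lowest. The difference was -0.18 (-1.24 to 0.88), and it was 0.30 in the set with knockouts 6 and 8 and -0.65 in the other. Slc25a28, mitoferrin 2 and the form of most tissues, read 9.11, 9.24, 9.23 and 9.11 in knockouts, against 9.30, 9.16, 8.87 and 9.21 in controls, within a range of 0.43. Within arrays, Slc25a37 minus Slc25a28 was -0.68 ± 0.41 in knockouts and -0.47 ± 1.04 in controls (SD, n = 4 each).

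Of the 3 red blood cell markers measured, 2 had the same highest arrays as Slc25a37. Alas2, the haem synthesis enzyme of red cell precursors, read 7.65, 8.43, 9.91 and 8.63 in knockouts, against 7.15, 6.99, 9.40 and 10.87 in controls. Slc4a1, the anion exchanger of the red cell membrane, read 5.40, 5.75, 6.41 and 6.14 in knockouts, against 5.74, 5.86, 6.23 and 7.80 in controls. Control 4 was highest in both, with knockout 9 next, whereas Hba-a1 was highest in control 3 (4.26) and lower in control 4 (3.88) and knockout 9 (3.93). The mean over these 3 of 6 listed markers was 5.66 to 6.75 in knockouts, against 5.63 to 7.52 in controls, and Hba-a1 lay near the low end of the scale throughout. Fech, which inserts iron into haem, read 10.65, 10.67, 11.04 and 10.65 in knockouts, against 10.74, 10.65, 10.81 and 11.32 in controls. Its 2 highest arrays were again control 4 and knockout 9. Of 6 genes of haem and iron-sulphur synthesis beside the mitoferrins, 3 read higher and 3 lower, with Alas1 at 0.20 and Abcb10 at -0.13. The part of red cell RNA in Slc25a37 was not tested.

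Slc25a39 and Slc25a40 supply mitochondria with glutathione. Slc25a39, the brightest member, read 13.13, 13.11, 13.20 and 12.98 in knockouts, against 13.35, 13.17, 13.02 and 13.12 in controls. Control 1 was highest and knockout 10 lowest. The difference was -0.06 (-0.26 to 0.14), with all 5 probe sets lower by the means, though the brightest is one that can bind related transcripts. Slc25a40 read 8.41, 8.20, 8.10 and 8.22 in knockouts, against 8.45, 8.48, 8.23 and 8.18 in controls, a difference of -0.10 (-0.33 to 0.13). Within arrays, Slc25a39 minus Slc25a40 was 4.87 ± 0.17 in knockouts and 4.83 ± 0.11 in controls (SD, n = 4 each). Slc25a38, the glycine carrier of haem synthesis, was the steadiest member, with a range of 0.17 over the 8 arrays, at 8.54 ± 0.07 in knockouts and 8.52 ± 0.04 in controls (SD, n = 4 each).

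Slc25a46 sits in the outer mitochondrial membrane, where it acts in membrane dynamics. It read 10.93, 10.80, 10.83 and 10.84 in knockouts, against 10.93, 11.06, 10.83 and 10.76 in controls, and the knockouts lay inside the control range (-0.04). Slc25a35, whose substrate is not settled, read 8.32, 8.19, 9.48 and 8.87 in knockouts, against 8.50, 8.64, 8.09 and 9.01 in controls. Knockout 9 was highest and control 3 lowest, with a difference of 0.16 (-0.53 to 0.85), or 0.30 with the RNA quality measure as a covariate. Slc25a34, Slc25a53 and Slc25a54 differed by -0.01, -0.06 and 0.17, and Slc25a54 was near the low end.

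Slc25a31, the ADP/ATP carrier of male germ cells, was the faintest member. It read 3.60, 3.47, 3.84 and 3.75 in knockouts, against 3.71, 3.36, 4.15 and 3.38 in controls, a difference of 0.02 (-0.40 to 0.43). Control 3 and knockout 9 were highest, and these were also the arrays with the most spermatid marker signal. The mean of the 8 listed spermatid markers was 5.13, 5.09, 8.25 and 5.21 in knockouts, against 5.65, 5.11, 7.77 and 6.15 in controls. Tnp1, a transition protein of spermatid chromatin, reached 10.11 in knockout 9 and 8.96 in control 3. The part of germ cell RNA in Slc25a31 was not tested.

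**Figure D5:**
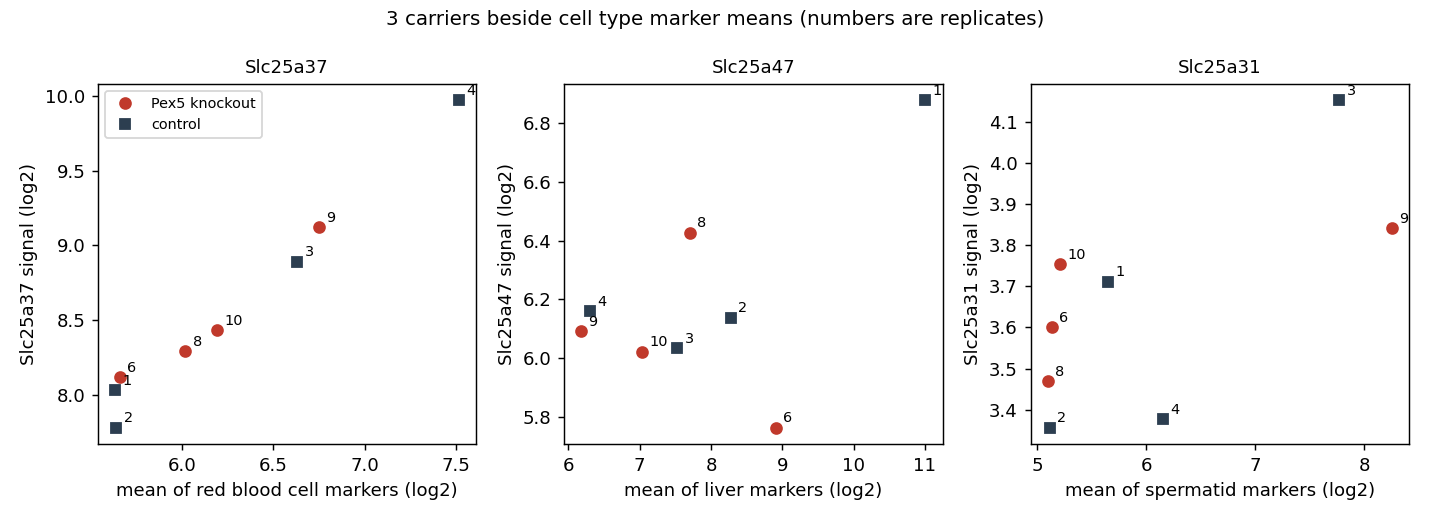
Signal of Slc25a37, Slc25a47 and Slc25a31 (log2, y axes) against the mean signal of red blood cell, liver and spermatid markers (log2, x axes), 1 point per array labelled with its replicate number, red for knockouts and dark for controls. Control 4 is highest for Slc25a37 (9.97), control 1 for Slc25a47 (6.88) and control 3 for Slc25a31 (4.15).

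Genes listed as companions of the carriers were mostly lower in knockouts by their means, without passing the test. Of 58 companion genes, 48 read lower (82.8%, against 53.3% of all genes) and 10 higher, with a median of -0.09 against -0.01 for all genes. The lists were made by hand with earlier results of these data known, so these shares are only a description. Subtracting array medians put 63.3% of all genes lower, and the companion count under that scaling is not given. Macrophage markers also had lower means: 8 of 8 read lower, with a median of -0.30. So did 7 of 7 liver markers (median -0.97), 5 of 5 of endothelium (-0.03), 7 of 8 of spermatids (-0.30) and 5 of 6 of mesothelium (-0.47). Most markers of adipocytes, T cells, B cells, fibroblasts, skeletal muscle and epididymis read higher instead. Adgre1, a surface receptor of macrophages, averaged 8.66 in knockouts and 9.11 in controls (-0.44), and Cd68, a lysosomal protein, averaged 9.30 in knockouts and 9.66 in controls (-0.37), with an adjusted limma p of 0.999 for both. The part of macrophages or of other cells in the companions' values was not tested. Unadjusted p was below 0.05 for 2 companions, Crat and Nudt12, both lower, where 1.38 percent of all genes were lower at that level. The machinery that inserts carriers into the inner membrane gave 10 lower and 1 higher of 11, with a median of -0.08. In it, Tomm70a, the outer membrane receptor for carrier precursors, differed by -0.16, and Timm9, a chaperone of the intermembrane space, by -0.22. Of 6 carriers outside the family, 5 read lower, with Sfxn3 at -0.15 and Sfxn5 at -0.12, both of the sideroflexins. The 3 outer membrane channels differed by a median of -0.02, with Vdac1 at -0.09.

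Family members named otherwise gave 3 lower and 1 higher. Ucp3, an uncoupling protein best known from muscle, read 8.12, 8.01, 6.27 and 6.77 in knockouts, against 8.60, 8.62, 8.75 and 6.42 in controls. Control 4 was lowest but for knockout 9, and the difference was -0.81 (-2.22 to 0.60). Mtch2, a protein of the outer membrane, differed by -0.15.

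The family's direction was not the same in the 2 sets of arrays. The sets were cut from these same values, match the order in which the samples are listed and hold 2 arrays of each group. The counts are therefore a description. In the set with controls 1 and 2, 27 members read lower (61.4%, against 55.0% of all genes) and 17 higher (median -0.07, against -0.02 over all genes). In the set with controls 3 and 4, 12 read lower (27.3%, against 46.6% of all genes) and 32 higher (median 0.07, against 0.01 over all genes). The sign was the same in both sets for 17 members (38.6%, against 53.4% of all genes), higher in 11 and lower in 6. Slc25a29, Slc25a30, Slc25a18, Slc25a12 and Slc25a13 were higher in both.

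Without knockout 9 and controls 1 and 4, a choice made after seeing the RNA quality measure, 3 knockouts were compared with 2 controls. There, limma called 0.852 percent of all genes at an adjusted p below 0.05, and 0 of the members. Of the members, 6 had an unadjusted limma p below 0.05 (13.6%, against 12.6 percent of all genes in either direction). All 6 read higher in knockouts, and the share of all genes in that direction is not given. Counting every member regardless of p, 26 read lower in knockouts here. They were Slc25a12 (0.55), Slc25a13 (1.07), Slc25a18 (0.63), Slc25a29 (0.48), Slc25a30 (0.55) and Slc25a42 (0.55). In all 6 genes the controls kept, 2 and 3, are the lowest of the 4 controls. The smallest adjusted limma p among members was 0.0768, for Slc25a12.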

How the data were processed

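Whole-tissue RNA of gonadal fat from 8 mouse samples, 4 knockout and 4 control per the labels, was extracted with Trizol, labelled with biotin and hybridised to 1 array each. The authors deposited log2 values made with RMA (version not given), per the submitters' processing notes. They ran from 2.71 to 14.8. Detection calls were not used here, the background of a probe set is unknown, and differences of faint genes may be compressed. Of 45101 probe sets, 64 controls were set aside. Of the rest, 34945 had 1 gene symbol in the platform annotation, 932 several and 9160 none. Of the first, 34741 were found in a RefSeq table on GRCm38.p6 by gene number, which changed 0 symbols. Each gene took its brightest probe set, giving 18193 genes. The members had 93 probe sets. Of the 23 members with more than 1, the sets differed in sign in 8.

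The comparison of groups used limma 3.58.1 (lmFit, then eBayes without trend or covariates) under R 4.3.3. P-values were adjusted by Benjamini-Hochberg over the 18193 genes, and the threshold was 0.05. Intervals are 95% and not adjusted. No filter was set on faint genes, so all 44 members entered the fit. The number of arrays limits the precision. On simulated data with 18193 genes, 32 of 50 genes changed 1.5-fold were called and 47 of 50 changed 2-fold, with 8 false calls. That simulation drew noise independently for each gene and changed many genes at once, up to 4-fold, which eases the adjustment. In the real arrays genes vary together, so it checks the fit and cannot show which change in a carrier would have been called. The members, lists and tests were chosen with earlier results of these data known.

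Values in every array are given for Slc25a17, the 8 brightest members, the 5 with the smallest p, the 5 with the widest range and 7 related pairs. Slc25a31, Slc25a42 and Slc25a47 were added after their values were seen, as were companion and marker genes shown array by array. Other companion genes named are the 2 with the smallest p in a list. Promoter motifs were searched with Python 3.11.15. Alternatives were a variance trend, a filter on faint genes, renormalisation, other probe set rules, array weights, the array set as a block, RNA quality as a covariate and leaving out arrays. Some further numbered carriers and companions were not analysed here.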

Additional observations from a re-analysis of the deposited data

Results flagged for a closer look

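Among the 44 carriers, the farthest array of each group was set against the other 3 by its gap over the group's range, with Dixon's 95% critical value as the limit. Chance alone passes about 1 group in 20, and 2 of 88 groups passed. Slc25a48 read 6.65 in knockout 9, where the other knockouts lay between 6.28 and 6.33. Slc25a47 read 6.88 in control 1, where the other controls lay between 6.04 and 6.16.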

How the results depend on the processing

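No paired analysis was possible because the groups share no replicate number. Among the carriers 0 passed the threshold in any setting run. Over all genes the count was 0 as well, except 155 without controls 1 and 4 and knockout 9, a setting added after seeing the data. Of 44 members, 21 read lower; leaving out single arrays gave 18 to 25, array medians subtracted gave 29, and each probe set alone gave 52 of 93. The median difference ran from -0.0543 without control 3 to 0.0347 without control 1. Slc25a17 ran from -0.30 to 0.0120, above zero without control 2.

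Of 429 values for 24 named members under the settings run, 393 kept their sign, 36 reversed and 0 passed the threshold. With array medians subtracted, Slc25a3 was -0.0200, Slc25a4 -0.0259 and Slc25a33 -0.0108. With probe sets averaged per gene, Slc25a3 was -0.109 and Slc25a4 -0.0545. With array weights, Slc25a3 was -0.0225, Slc25a4 -0.0364, Slc25a33 -0.0629, Slc25a37 0.0239 and Slc25a36 0.00868. With the RNA quality covariate, Slc25a4 was -0.00263, Slc25a33 -0.0316 and Slc25a37 0.0243. Without the 3 arrays, Slc25a4 was -0.0297, Slc25a25 -0.0780, Slc25a33 -0.0729 and Slc25a36 0.0970. The cause was not tested. Leaving out single arrays, the differences ran from -0.0570 to 0.0569 for Slc25a3, -0.0469 to 0.0384 for Slc25a4, -0.167 to 0.00159 for Slc25a5, -0.0876 to 0.0117 for Slc25a46, -0.0982 to 0.332 for Slc25a35 and -0.473 to 0.258 for Slc25a37. They ran from -0.0517 to 0.0909 for Slc25a28, -0.133 to 0.0619 for Slc25a24, -0.0401 to 0.323 for Slc25a25, -0.140 to 0.0985 for Slc25a33 and -0.102 to 0.0627 for Slc25a36. Leaving out single arrays gave 0.005 to 0.60 for Slc25a13, -0.68 to -0.17 for Slc25a1, -0.62 to -0.06 for Slc25a10, -0.24 to -0.02 for Slc25a22, 0.26 to 0.48 for Slc25a18, 0.42 to 0.71 for Slc25a29 and 0.29 to 0.45 for Slc25a30. With probe sets averaged, Slc25a29 was 0.36 (unadjusted limma p 0.0528) and Slc25a30 0.26. Slc25a13, Slc25a18 and Slc25a27 had no value under the filter on faint genes.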
